A study of Mus musculus with 11 samples.

Results

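Border-associated macrophages are the resident macrophages of the meninges, perivascular spaces and choroid plexus. They share a myeloid origin with microglia but are told apart from them by endocytic receptors and by secreted or metabolic gene products. The levels of 10 such marker genes were followed in RNA from cells sorted as microglia: Mrc1, Cd163, Lyve1, Pf4, F13a1, Cbr2, Stab1, Folr2, Clec10a and Colec12. The genes were chosen by symbol as known markers, but with earlier results of these data known. All 10 were found among the 55401 gene rows. All 10 also passed the filter on low counts that left 20390 tested genes. Colec12 passed it through the libraries without Tyrobp-/-. Cd163 and Lyve1 passed it through the Tyrobp-/- libraries: of the others, NLGF replicate 3 alone reached its level.

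The study addressed how Inpp5d, which encodes the inositol phosphatase SHIP1, acts when signalling through the microglial receptor TREM2 is lost. Tyrobp encodes DAP12, the adaptor of TREM2. Every mouse carried NLGF, the App knock-in alleles that give amyloid plaques, on a C57BL/6 background and was aged 9 to 10 months. The 11 libraries comprised 4 genotypes, with 2 libraries of Tyrobp-/-;NLGF, 3 of Tyrobp-/-;Inpp5d+/-;NLGF (called the compound mutant here), 3 of Inpp5d+/-;NLGF and 3 of NLGF. No mouse without NLGF was among the libraries used here, so the levels are those of an amyloid-bearing brain. The cells were live CD11b+/CD45+ cells of the brain, a gate that border-associated macrophages, monocytes and neutrophils can also pass. The labels do not state whether each library is 1 animal, so tests measure the spread between libraries.

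The receptors among these markers take up debris and ligands: haemoglobin complexes for CD163, mannosylated glycoproteins for the mannose receptor MRC1, modified lipoproteins and matrix fragments for stabilin-1. Their secreted products include the chemokine PF4 and the transglutaminase subunit F13A1. Around the brain, such macrophages line vessels and meninges, where they clear material from interstitial and cerebrospinal fluid, and several of these genes are also used by macrophages or monocytes elsewhere in the body.

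Library totals ran from 29490567 to 66637052 counts, and 3 counts were worth 0.0477 to 0.1 CPM, counts per 1e6 counts after TMM scaling. Tyrobp was at 3.22 to 8.94 CPM in the 5 Tyrobp-/- libraries, against 1952 to 2559 CPM in the other 6. Inpp5d was at 190 to 260 CPM in the compound mutant, against 447 and 449 CPM in Tyrobp-/-;NLGF, and at 191 to 280 CPM in Inpp5d+/-;NLGF, against 205 to 436 CPM in NLGF, where the groups overlapped. P2ry12, a purinergic receptor gene that marks microglia, was at 4878 to 7397 CPM over the 11 libraries. Of 25 further border macrophage genes, 23 exceeded 3 counts in at least 1 library, and the other 2, Fcna and Vsig4, had no count in any. Among the 23 were Hpgd at 573 to 772 CPM, Maf at 65.1 to 114.7 CPM and Ms4a7 at 1.25 to 6.42 CPM. In NLGF replicate 2, Hpgd was at 705 CPM and Stab1 at 60.0 CPM, while Mrc1, Cd163, Lyve1, Pf4 and Cbr2 had no count. Which cells the Hpgd, Maf and Stab1 RNA came from was not tested. Some libraries stood apart by RNA of other cells. The summed CPM of 12 neutrophil markers was 267 to 19417 in the Tyrobp-/- libraries, against 0.721 to 237 in the others, and that of 14 monocyte markers was 127 to 2261, against 24.9 to 89.0. Both sums were highest in Tyrobp-/-;NLGF replicate 1, next in compound mutant replicate 2 and lowest of the Tyrobp-/- libraries in compound mutant replicate 1, which held the most neuronal marker RNA (20.2 summed CPM, against at most 6.46 elsewhere). The identifiers in the titles of the Tyrobp-/- libraries do not interleave with those of the other libraries, so a difference in handling or litter and the Tyrobp genotype cannot be told apart.

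Stab1 was the highest of the 10 genes. On a scale of CPM per kilobase of exon length, which allows genes to be compared, Stab1 averaged 10.1 ± 3.56 (SD over the 11 libraries), followed by Pf4 at 4.05 ± 3.28 and F13a1 at 3.43 ± 5.16. Folr2 (1.6 ± 1.9), Cbr2 (1.15 ± 1.09), Clec10a (0.927 ± 0.772) and Mrc1 (0.659 ± 0.997) came next on that scale. The lowest levels were those of Colec12 (0.243 ± 0.363), Cd163 (0.0699 ± 0.127) and Lyve1 (0.0432 ± 0.0743). Stab1 was above Pf4 in 10 of 11 libraries, and each later neighbour in the order differed by less than the SD of the higher one. Stab1 led in 9 of 11 libraries. The exceptions were Tyrobp-/-;NLGF replicate 1, where F13a1 was at 16.8 CPM per kilobase against 9.54 for Stab1, and NLGF replicate 3, where Pf4 was at 7.24 against 5.94. That order is of means over all genotypes. By genotype, F13a1 averaged 10.5 ± 8.95 CPM per kilobase in Tyrobp-/-;NLGF (SD, n = 2) and the compound mutant's mean was 4.60 ± 3.80, against 0.597 ± 0.541 in Inpp5d+/-;NLGF and 0.359 ± 0.320 in NLGF (n = 3 each). In those without Tyrobp-/- it was below Folr2 (3.02 in Inpp5d+/-;NLGF and 0.880 in NLGF) and Cbr2 (0.612 and 1.02). Colec12 had the lowest mean of the 10 in both genotypes with Tyrobp-/-, at 0.00228 CPM per kilobase in Tyrobp-/-;NLGF and at 0.00122 in the compound mutant. Its mean was above that of Clec10a (0.619 against 0.409) in Inpp5d+/-;NLGF and above that of Mrc1 (0.269 against 0.102) in NLGF. The classical markers were low: Mrc1 had 0 counts in 2 libraries, Cd163 in 5 and Lyve1 in 6.

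**Figure D1:**
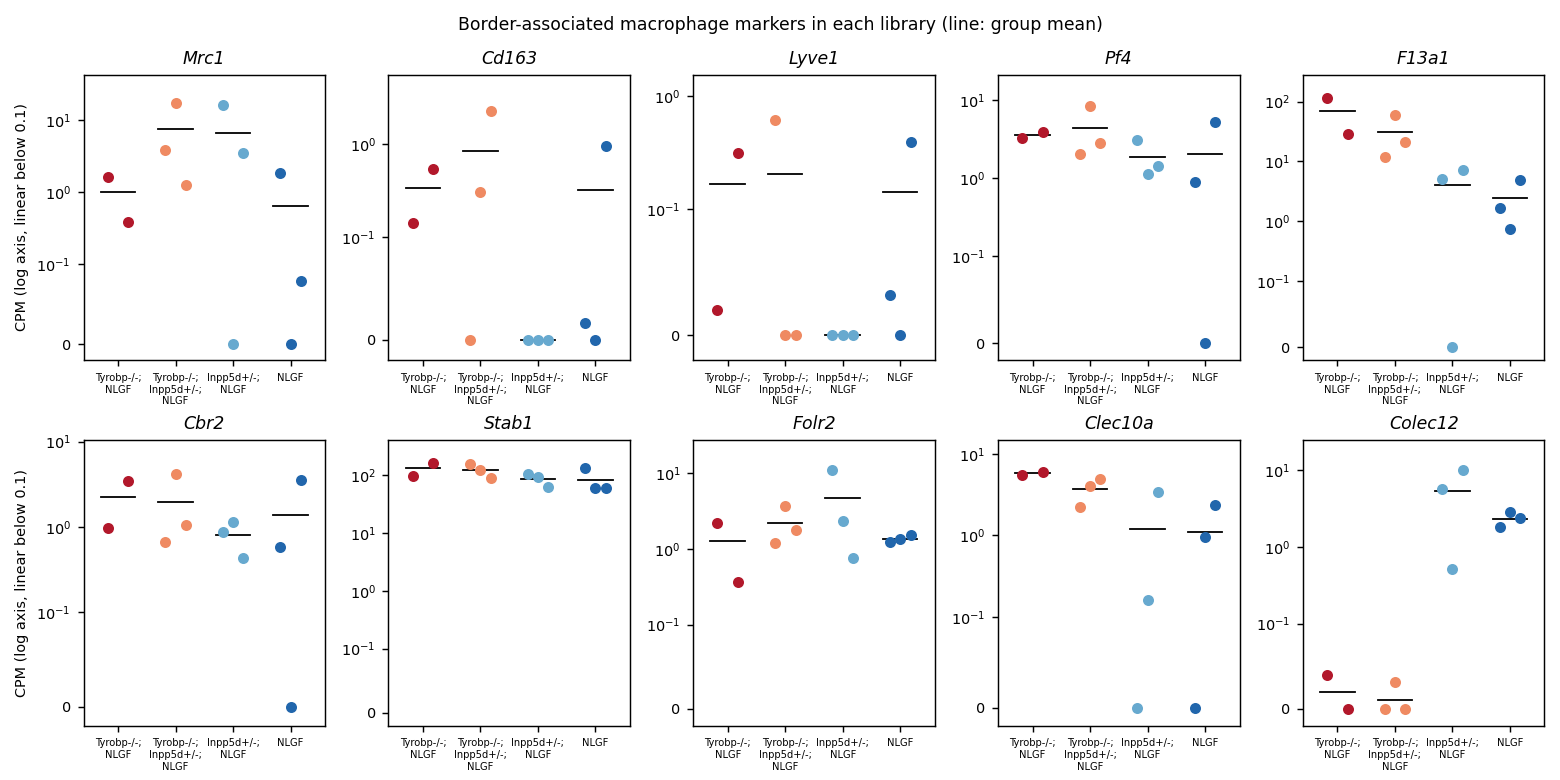
Each panel plots 1 gene, with the CPM of each library on a log axis that is linear below 0.1, the 4 genotypes from left to right and a line at each group mean. Colec12 sat at or below 0.0398 CPM in the 5 Tyrobp-/- libraries and at 0.522 to 9.99 CPM in the other 6, F13a1 ran the other way, and the remaining genes overlapped between the genotypes with and without Tyrobp-/-.

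A pair of markers separated the genotypes with Tyrobp-/- from those without, in opposite directions. The scavenger receptor gene Colec12 fell almost to 0 counts in Tyrobp-/- libraries. F13a1, which encodes the transglutaminase subunit of coagulation factor XIII, was higher in every Tyrobp-/- library than in any other, but its adjusted p was just over the threshold of 0.05. Stab1, Mrc1, Clec10a and the other genes did not pass the test. In bulk libraries such as these, fewer cells of a type and less RNA per cell cannot be told apart.

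The main test pooled both Inpp5d genotypes: the 5 Tyrobp-/- libraries were set against the 6 without Tyrobp-/-, as the mean of the 2 within-Inpp5d contrasts (edgeR quasi-likelihood test, Benjamini-Hochberg adjustment over 20390 genes). It is the pooled Tyrobp comparison below. In it 0 of the 10 markers rose and 1 fell, Colec12, where 4.75% of all tested genes were called, 2.08% as higher and 2.66% as lower. Of the 10 fitted log2 fold changes, 8 were positive, with a median of 1.0, against a median of 0.0179 over all tested genes. Among these 8 were Cd163 and Lyve1, which passed the filter on low counts through the Tyrobp-/- libraries. With the mean of the neutrophil markers as a covariate, 5 of these 8 were negative: Mrc1 (-0.67), Cd163 (-0.10), Pf4 (-0.69), Cbr2 (-0.63) and Clec10a (-0.073). None of the 5 passed in either fit. The covariate came with wider errors: in Tyrobp-/-;NLGF against NLGF the SE went from 1.84 to 3.44 for Clec10a and from 1.44 to 2.35 for F13a1. It went from 1.65 to 2.66 for Colec12 and from 0.393 to 0.592 for Stab1. The summed neutrophil and monocyte markers were higher in every Tyrobp-/- library than in any other, and their part in these signs was not tested. The markers were chosen with earlier results of these data known, so the signs and the median are description only. By library levels, 1 marker was without overlap as higher (F13a1) and 1 as lower (Colec12), where 2.7% and 3.47% of all tested genes were.

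**Figure D2:**
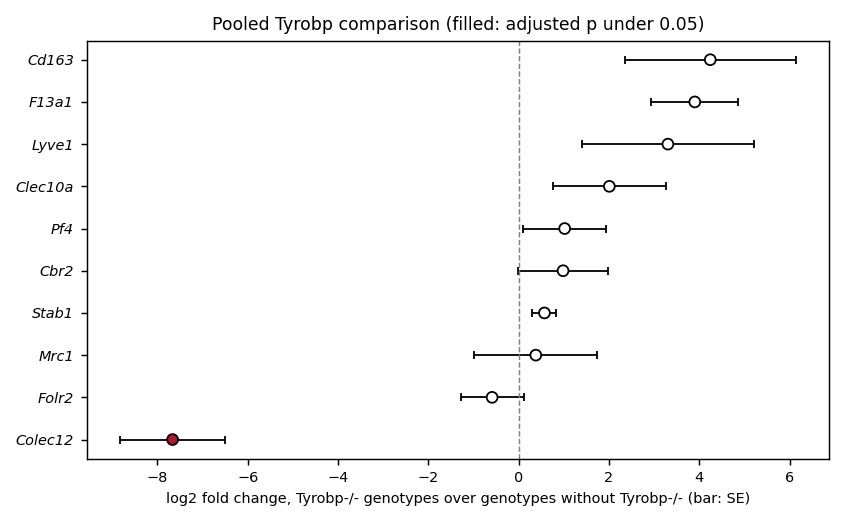
The plot gives the log2 fold change of each marker in the pooled Tyrobp comparison, with bars for 1 SE and a filled point where the edgeR adjusted p was under 0.05. Colec12 lies at -7.66 and is the filled point, 8 genes lie above 0, and the bars of Cd163 and Lyve1 (SE 1.89 and 1.90) are the widest.

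Among the scavenger receptor genes, Stab1 had counts in all 11 libraries, and Cd163 was at 0 in 5 of them. Stab1 (ENSMUSG00000042286.13, chromosome 14, 31139013 to 31168641, minus strand, GRCm38) encodes stabilin-1, a large receptor that clears modified lipoproteins and matrix fragments. It was at 98.1 and 163.6 CPM in Tyrobp-/-;NLGF and at 157.7, 124.1 and 89.3 CPM in the compound mutant. In Inpp5d+/-;NLGF it was at 106.7, 91.7 and 63.4 CPM, and in NLGF at 131.0, 60.0 and 61.1 CPM. The genotypes overlapped, with NLGF replicate 1 above 3 of the 5 Tyrobp-/- libraries. The group means were 130.9 ± 46.3 CPM (SD, n = 2) in Tyrobp-/-;NLGF, 123.7 ± 34.2 (n = 3) in the compound mutant, 87.3 ± 22.0 (n = 3) in Inpp5d+/-;NLGF and 84.0 ± 40.7 (n = 3) in NLGF. The log2 fold change in the pooled Tyrobp comparison was 0.57 (SE 0.27, edgeR adjusted p = 0.280), which did not pass. Stab1 had the smallest biological coefficient of variation of the 10 markers, 0.306, against 2.11 for Lyve1.

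Colec12 (ENSMUSG00000036103.9, chromosome 18, 9707595 to 9882644, plus strand) encodes a membrane collectin, a scavenger receptor with a C-type lectin domain that is also known from vascular endothelium. It was at 0.0398 and 0 CPM in Tyrobp-/-;NLGF and at 0, 0.0318 and 0 CPM in the compound mutant. Levels were 5.68, 0.522 and 9.99 CPM in Inpp5d+/-;NLGF, and 1.79, 2.84 and 2.42 CPM in NLGF. The 5 Tyrobp-/- libraries were therefore all below the floor of 3 counts, and none came near the lowest of the other 6. In counts, 4 reads were assigned to Colec12 in the Tyrobp-/- libraries together, against 1000 in the others. Scaled for depth this was 233.8-fold lower, with an exact 95% interval of 91.0 to 860 that covers counting error only. The fitted log2 fold change in the pooled Tyrobp comparison was -7.66 (SE 1.16, edgeR adjusted p = 0.00623). At these counts the fitted size depends on the prior count.

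The fall of Colec12 was also examined within each Inpp5d genotype. In the compound mutant against Inpp5d+/-;NLGF there were 2 counts against 651, a depth-scaled 404-fold lower level (111 to 3344), and the test was passed (log2 fold change -8.58, SE 1.48, edgeR adjusted p = 0.0299). Colec12 was the 1 marker of 10 called there, where 0.897% of all tested genes were called. That call ended without any 1 of the 3 compound mutant libraries, and without Inpp5d+/-;NLGF replicate 1 or 3 (edgeR adjusted p = 0.0733 to 0.115) or NLGF replicate 2. It also ended in the fit on the compared groups only (edgeR adjusted p = 0.0879), with the neutrophil marker covariate (0.0581) and without the pair of libraries highest in S100a8 (0.110). In the fits with a value given here, the log2 fold change was -7.80 to -11.8. Of all tested genes, 0.602% were called in the fit on the compared groups only and 0.142% with the covariate. In Tyrobp-/-;NLGF against NLGF there were 2 counts against 349, a 117-fold lower level (32.2 to 972), with a log2 fold change of -6.74 (SE 1.65, edgeR adjusted p = 0.108). No marker of 10 was called in that comparison by edgeR, where 0.863% of all tested genes were. At an unadjusted p under 0.05 there were 2, Colec12 and F13a1, where 12.1% of all tested genes were. DESeq2 called 1, Colec12, where it called 5.08% of all tested genes. For the compound mutant against NLGF, 2 counts against 349 gave a 186-fold lower level (51.2 to 1544) and a log2 fold change of -7.38 (SE 1.42, edgeR adjusted p = 0.0502). There, too, edgeR called 0 of 10, where 0.873% of all tested genes were called. An unadjusted p under 0.05 was reached by 2 (13% of all tested genes). DESeq2 called 1, where it called 4.94% of all tested genes. These comparisons share libraries: NLGF serves in a pair of them and the compound mutant in another pair.

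The pooled call on Colec12 held in each of the 11 fits that left out 1 library. It ended without Tyrobp-/-;NLGF replicate 1 and compound mutant replicate 2 together, the libraries with most S100a8 (log2 fold change -10.5, edgeR adjusted p = 0.0514), and with the neutrophil marker mean as a covariate (-12.0, edgeR adjusted p = 0.0825). With that covariate 0.147% of all tested genes were called, against 4.75% in the main fit. Of 7 tested endothelial markers, 1 fell, Flt1, and 1 rose, Ly6c1, where 2.66% of all tested genes were called as lower and 2.08% as higher. The summed endothelial level was 7.89 to 23.8 CPM in the Tyrobp-/- libraries, against 19.5 to 35.3 CPM in the others. Flt1, a VEGF receptor gene, was at 0 to 2.61 CPM in the Tyrobp-/- libraries, against 6.08 to 15.8 CPM in the others (edgeR adjusted p = 0.0181). Of 3 tested mural markers 1 fell, the pericyte and glial progenitor gene Cspg4, at 0 counts in all 5 Tyrobp-/- libraries, against 0.161 to 24.1 CPM (edgeR adjusted p = 0.0221). Like Colec12, Flt1 and Cspg4 passed the filter on low counts through the libraries without Tyrobp-/-. The summed mural level was 0.0753 to 2.21 CPM in the Tyrobp-/- libraries and 0.161 to 24.7 CPM in the others. The calls on Flt1 and Cspg4 ended when either Tyrobp-/-;NLGF library was left out (edgeR adjusted p = 0.0834 to 0.0920). Pecam1 and Kdr, endothelial genes with counts in every library, overlapped between the genotypes: Pecam1 was at 4.78 to 12.5 CPM in the Tyrobp-/- libraries, against 2.13 to 7.40 CPM in the others, and Kdr at 2.37 to 7.64 CPM, against 5.36 to 18.01 CPM. Cldn5, the claudin gene of brain endothelium, was at or below 0.226 CPM and Slco1a4 at 0 in all libraries. The part of Flt1 and Cspg4 expressing cells in the Colec12 difference was not tested.

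Cd163 (ENSMUSG00000008845.9, chromosome 6, 124304656 to 124330527, plus strand), the haemoglobin-haptoglobin receptor, was at 0.139 and 0.536 CPM in Tyrobp-/-;NLGF and at 0, 0.302 and 2.25 CPM in the compound mutant. It had no count in any Inpp5d+/-;NLGF library and was at 0.0160, 0 and 0.954 CPM in NLGF. The highest library, compound mutant replicate 3, rested on 112 counts and the highest NLGF library on 60, so the groups overlapped. The log2 fold change of 4.24 (SE 1.89, edgeR adjusted p = 0.276) depends on the prior count, since 1 group was at 0 throughout.

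The receptors for glycans, Mrc1, Clec10a and Lyve1, did not pass the edgeR test in any comparison. Mrc1 (ENSMUSG00000026712.3, chromosome 2, 14229392 to 14332057, plus strand) encodes the mannose receptor CD206, the usual surface marker of border-associated macrophages. It was at 1.63 and 0.388 CPM in Tyrobp-/-;NLGF, and at 3.90, 17.2 and 1.25 CPM in the compound mutant. In Inpp5d+/-;NLGF it was at 16.4, 0 and 3.54 CPM, and in NLGF at 1.87, 0 and 0.0795 CPM. The highest values belonged to compound mutant replicate 2 (1078 counts) and Inpp5d+/-;NLGF replicate 1 (800 counts), while each of the genotypes without Tyrobp-/- also had a library with no count. In the pooled Tyrobp comparison the log2 fold change was 0.38 (SE 1.36, edgeR adjusted p = 0.937). Its sign turned without Tyrobp-/-;NLGF replicate 1 (-0.31) or compound mutant replicate 2 (-0.38).

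Clec10a (ENSMUSG00000000318.16, chromosome 11, 70156197 to 70170834, plus strand) encodes a macrophage lectin for galactose and N-acetylgalactosamine. Its neighbour Mgl2 is a close copy: over 910 aligned coding bases the 2 genes were 90.4% identical (GENCODE vM21), and 9.02% of the 50-base stretches of Clec10a transcripts recur in another gene, mostly Mgl2. The longest shared run is shown because reads inside it cannot be placed in 1 of the genes by sequence. It is 183 bases long, at 502 to 684 of the Clec10a coding sequence and at 550 to 732 of the Mgl2 coding sequence, and is given in capitals between the flanking bases.
Clec10a: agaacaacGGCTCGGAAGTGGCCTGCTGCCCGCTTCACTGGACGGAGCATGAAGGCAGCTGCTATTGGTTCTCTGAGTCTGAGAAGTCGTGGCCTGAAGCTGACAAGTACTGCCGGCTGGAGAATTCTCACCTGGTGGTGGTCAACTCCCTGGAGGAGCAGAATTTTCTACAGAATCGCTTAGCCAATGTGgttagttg
Mgl2: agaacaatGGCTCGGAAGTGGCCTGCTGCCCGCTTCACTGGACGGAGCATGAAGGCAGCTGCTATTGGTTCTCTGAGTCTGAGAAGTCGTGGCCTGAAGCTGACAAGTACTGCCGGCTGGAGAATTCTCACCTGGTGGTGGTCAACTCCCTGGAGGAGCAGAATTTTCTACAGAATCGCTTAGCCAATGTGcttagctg
How reads with several positions were counted is not given in the sources used here, so the levels of the pair are uncertain. Clec10a was at 5.55 and 5.96 CPM in Tyrobp-/-;NLGF and at 2.20, 4.06 and 4.86 CPM in the compound mutant. In Inpp5d+/-;NLGF it was at 0, 0.161 and 3.40 CPM, and in NLGF at 0, 0.968 and 2.39 CPM. All Tyrobp-/- libraries but compound mutant replicate 1 were above every other library, and that one was below Inpp5d+/-;NLGF replicate 3 and NLGF replicate 3. In the pooled Tyrobp comparison Clec10a had a log2 fold change of 2.01 (SE 1.26, edgeR adjusted p = 0.444). With the neutrophil marker mean as a covariate it was -0.073.

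Lyve1 (ENSMUSG00000030787.4, chromosome 7, 110850607 to 110863239, minus strand), a hyaluronan receptor shared by perivascular macrophages and lymphatic endothelium, had the lowest level per kilobase over all 11 libraries, though not in the Tyrobp-/- genotypes, where Colec12 was lower. It was at 0.0199 and 0.314 CPM in Tyrobp-/-;NLGF, at 0.621, 0 and 0 CPM in the compound mutant, at 0 in all of Inpp5d+/-;NLGF, and at 0.0320, 0 and 0.398 CPM in NLGF. No library had more than 33 counts, and the groups overlapped at 0. Its log2 fold change of 3.30 (SE 1.90, edgeR adjusted p = 0.412) depends on the prior count. Of 6 lymphatic genes, Prox1 had counts in all 11 libraries, at 2.56 to 6.12 CPM in the Tyrobp-/- libraries, against 1.69 to 5.26 CPM in the others. Pdpn and Reln each had counts in 2 libraries, and Flt4, Ccl21a and Mmrn1 in none.

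Folr2 (ENSMUSG00000032725.10, chromosome 7, 101839988 to 101857194, minus strand), the folate receptor beta gene of tissue macrophages, was at 2.19 and 0.370 CPM in Tyrobp-/-;NLGF and at 1.19, 3.61 and 1.79 CPM in the compound mutant. It was at 10.9, 2.31 and 0.748 CPM in Inpp5d+/-;NLGF and at 1.23, 1.33 and 1.51 CPM in NLGF. Inpp5d+/-;NLGF replicate 1 stood above all other libraries, and the groups overlapped. The log2 fold change in the pooled Tyrobp comparison was -0.59 (SE 0.70, edgeR adjusted p = 0.734), and 0.22 without that library. Of its exon bases, 63.1% overlap the antisense gene Gm10602, and without strand reads of the pair cannot be told apart.

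Of the genes for secreted and metabolic products, F13a1 differed most between libraries, and Pf4 and Cbr2 overlapped between the genotypes. F13a1 (ENSMUSG00000039109.16, chromosome 13, 36867178 to 37050244, minus strand) is also used by monocytes and platelets. It was at 113.5 and 28.2 CPM in Tyrobp-/-;NLGF and at 11.9, 60.1 and 21.1 CPM in the compound mutant. In Inpp5d+/-;NLGF it was at 4.97, 0 and 7.11 CPM, and in NLGF at 1.67, 0.734 and 4.85 CPM. The lowest Tyrobp-/- library, at 11.9 CPM, was above the highest of the others, at 7.11 CPM. The log2 fold change in the pooled Tyrobp comparison was 3.90 (SE 0.96, edgeR adjusted p = 0.0509). Without Inpp5d+/-;NLGF replicate 2, the library at 0, the edgeR adjusted p was 0.0306, with a filter of 1 CPM in 3 libraries it was 0.0320, and DESeq2 gave an adjusted p of 0.00892. In the pooled Tyrobp comparison DESeq2 called 10.6% of all tested genes and that filter gave 7.79%, against 4.75% in the main fit. The log2 fold changes within Inpp5d genotypes were 4.84 (SE 1.44, edgeR adjusted p = 0.182) for Tyrobp-/-;NLGF against NLGF and 2.96 (SE 1.28, edgeR adjusted p = 0.360) for the compound mutant against Inpp5d+/-;NLGF. Against NLGF, the compound mutant was at 3.65 (SE 1.32, edgeR adjusted p = 0.283).

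The F13a1 levels in the 5 Tyrobp-/- libraries had the same order as the levels of S100a8 and Ly6c2, marker genes of neutrophils and of classical monocytes. S100a8 was at 6923 and 1604 CPM in Tyrobp-/-;NLGF and at 94.0, 3644 and 782 CPM in the compound mutant, against 0.240 to 80.8 CPM in the other libraries. Ly6c2 was at 213 and 45.5 CPM in Tyrobp-/-;NLGF and at 5.20, 87.6 and 28.5 CPM in the compound mutant, against 0.865 to 8.0 CPM in the others. Among those other libraries the order did not hold: NLGF replicate 2 had the most S100a8, 80.8 CPM, and F13a1 at 0.734 CPM. Compound mutant replicate 1, with S100a8 at 94.0 CPM, had F13a1 at 11.9 CPM. The part of neutrophils and monocytes in the F13a1 difference was not tested. Of 12 neutrophil markers 10 rose in the pooled Tyrobp comparison, and of 14 monocyte markers 7 rose, none of either list falling. Of all tested genes, 2.08% were called as higher there and 2.66% as lower. With the neutrophil marker mean as a covariate, the F13a1 log2 fold change was 1.16 (edgeR adjusted p = 0.913), and without the 2 libraries with most S100a8 it was 2.78 (edgeR adjusted p = 0.348). Of the platelet genes, Ppbp, Gp5 and Gp6 had no count in any library, while Gp9 was at 13.4 to 32.5 CPM in the Tyrobp-/- libraries, against 4.90 to 16.1 CPM in the others, and Clec1b at 2.63 to 4.17 CPM, against 3.67 to 8.09 CPM. The summed level of the 11 platelet and megakaryocyte genes, carried by Itgb3, Gp9 and Clec1b, was 75.7 to 115.7 CPM in the Tyrobp-/- libraries, against 97.0 to 119.8 CPM in the others.

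**Figure D3:**
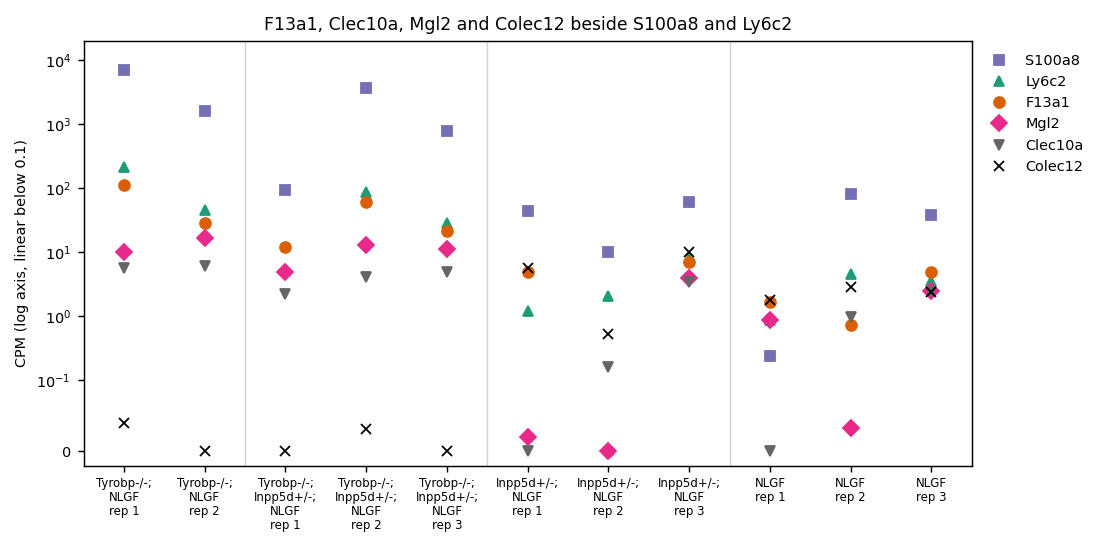
The plot sets F13a1, Clec10a, Colec12 and the Clec10a relative Mgl2 beside S100a8 and Ly6c2 in each library, in CPM on a log axis that is linear below 0.1. Within the Tyrobp-/- libraries, F13a1 follows S100a8 and Ly6c2 down to compound mutant replicate 1, while Colec12 lies at or below 0.0398 CPM in all 5. In the other libraries that order does not hold, NLGF replicate 2 having S100a8 at 80.8 CPM and F13a1 at 0.734 CPM.

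Pf4 (ENSMUSG00000029373.7, chromosome 5, 90772435 to 90773383, plus strand), the chemokine CXCL4 of platelets and border-associated macrophages, was at 3.26 and 3.87 CPM in Tyrobp-/-;NLGF and at 2.03, 8.45 and 2.79 CPM in the compound mutant. It was at 3.07, 1.12 and 1.44 CPM in Inpp5d+/-;NLGF and at 0.881, 0 and 5.22 CPM in NLGF. Compound mutant replicate 2 was highest, NLGF replicate 3 next, and the groups overlapped. For Pf4 the pooled Tyrobp comparison gave a log2 fold change of 1.02 (SE 0.92, edgeR adjusted p = 0.625), and -0.69 with the neutrophil marker covariate.

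Cbr2 (ENSMUSG00000025150.10, chromosome 11, 120729489 to 120732114, minus strand), a carbonyl reductase gene, was at 0.975 and 3.46 CPM in Tyrobp-/-;NLGF and at 0.659, 4.19 and 1.05 CPM in the compound mutant. It was at 0.879, 1.12 and 0.432 CPM in Inpp5d+/-;NLGF and at 0.577, 0 and 3.50 CPM in NLGF. As with Pf4, the highest library of the compound mutant was replicate 2 and that of NLGF was replicate 3, and the groups overlapped. Cbr2 had a log2 fold change of 0.98 in the pooled Tyrobp comparison (SE 1.0, edgeR adjusted p = 0.677), and -0.63 with the neutrophil marker covariate. Of its 50-base stretches, 12.1% recur in Gm11771, so part of its reads is uncertain.

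The promoter windows of Stab1, the steadiest marker, and F13a1, which was higher in every Tyrobp-/- library than in any other, are shown because the 2 genes differed in how their levels spread over the genotypes (RefSeq, GRCm38.p6, from 250 bases before to 50 after the start). Each was searched on both strands for GAGGAA, the core of PU.1 motifs, and TGCTGA, part of the Maf recognition element, and matches are in capitals. PU.1 and Maf are transcription factors of macrophages. Stab1 spans chr14:31168592-31168891 and F13a1 chr13:37050195-37050494, both on the minus strand.
Stab1: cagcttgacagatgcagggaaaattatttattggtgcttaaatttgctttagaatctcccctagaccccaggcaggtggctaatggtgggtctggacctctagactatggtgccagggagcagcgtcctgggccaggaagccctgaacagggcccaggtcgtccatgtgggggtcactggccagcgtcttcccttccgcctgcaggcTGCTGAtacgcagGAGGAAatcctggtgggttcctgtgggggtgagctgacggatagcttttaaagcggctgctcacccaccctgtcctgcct
F13a1: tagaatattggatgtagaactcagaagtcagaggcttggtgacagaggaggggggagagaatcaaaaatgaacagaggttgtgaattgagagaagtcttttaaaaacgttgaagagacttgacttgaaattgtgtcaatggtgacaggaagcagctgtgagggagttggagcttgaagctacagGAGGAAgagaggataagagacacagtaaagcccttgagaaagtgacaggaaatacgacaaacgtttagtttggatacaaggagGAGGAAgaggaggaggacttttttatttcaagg
The Stab1 window holds TGCTGA at -43 and GAGGAA at -30 from the start, without overlap between them. The F13a1 window shown holds GAGGAA at 2 places and no TGCTGA. Another F13a1 window, chr13:37049164-37049463, is not shown and holds GAGGAA at 1 place and no TGCTGA. Over the 7 markers with a searched window, which have 9 such windows in all, GAGGAA was found in 6 and TGCTGA in 4. Among all 32851 RefSeq promoter windows, 28.3% hold GAGGAA and 19.5% hold TGCTGA. Lyve1, Clec10a and Colec12 are without a window here. The matches are letters in a window only.

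The summed level of the 10 markers was dominated by Stab1. It was 225.5 and 206.7 CPM in the libraries of Tyrobp-/-;NLGF, and 180.2, 222.0 and 124.4 CPM in those of the compound mutant. In Inpp5d+/-;NLGF it was 148.6, 96.9 and 90.1 CPM, and in NLGF 139.0, 65.9 and 82.4 CPM. Compound mutant replicate 3 was below Inpp5d+/-;NLGF replicate 1 and NLGF replicate 1, so the genotypes with and without Tyrobp-/- overlapped. Without Stab1 the sum was 127.3 and 43.1 CPM in the libraries of Tyrobp-/-;NLGF, 22.5, 97.9 and 35.1 CPM in those of the compound mutant, 41.9, 5.24 and 26.7 CPM in Inpp5d+/-;NLGF, and 8.08, 5.87 and 21.3 CPM in NLGF. Without both Stab1 and F13a1 it was 10.6 to 37.8 CPM in the Tyrobp-/- libraries and 5.14 to 36.9 CPM in the others. The 8 remaining markers together therefore overlapped between the genotypes with and without Tyrobp-/-. Which cells the Stab1 RNA in the sum came from was not tested.

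**Figure D4:**
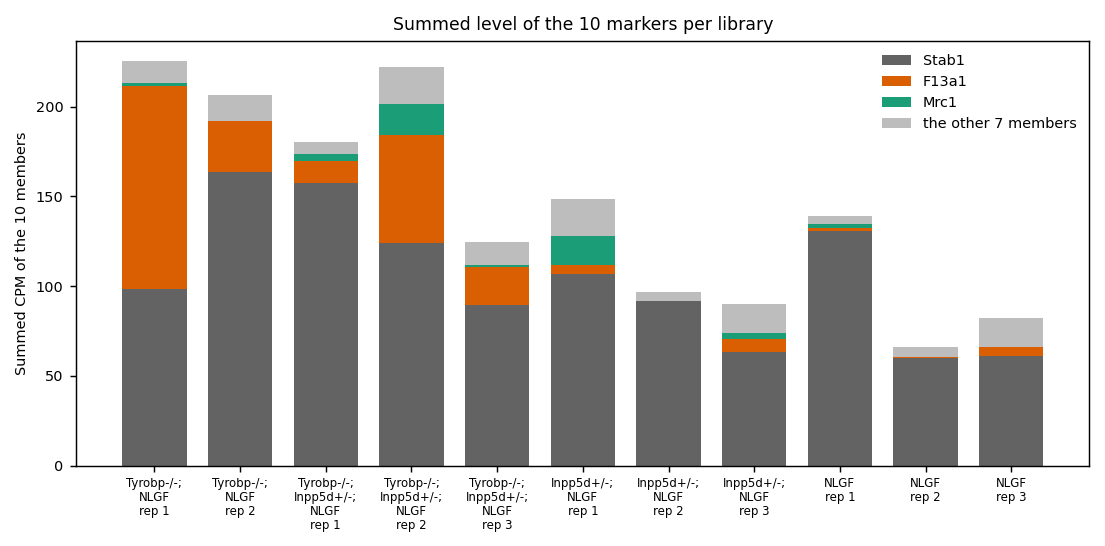
Stacked bars give the summed CPM of the 10 markers in each library, split into Stab1, F13a1, Mrc1 and the other 7 genes. Stab1 makes up 43.5% to 94.6% of each bar, and the F13a1 section is largest in Tyrobp-/-;NLGF replicate 1 and compound mutant replicate 2.

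No marker was called between Inpp5d genotypes. In Inpp5d+/-;NLGF against NLGF, edgeR called 0 of 10 (0% of all tested genes), and none had an unadjusted p under 0.05 (4.66%). DESeq2 called 0 there (0.142% of all tested genes). The smallest unadjusted edgeR p was 0.0513, for Cd163, adjusted 0.952. In the compound mutant against Tyrobp-/-;NLGF, edgeR called 0 of 10, where 0.00981% of all tested genes were called. None had an unadjusted p under 0.05 (4.08% of all tested genes), and DESeq2 called 0 (0.245%). The smallest unadjusted edgeR p was 0.237, for Mrc1. Clec10a was without overlap there, at 2.20 to 4.86 CPM in the compound mutant and 5.55 and 5.96 CPM in Tyrobp-/-;NLGF, where 18.8% of all tested genes were without overlap. The interaction of Tyrobp and Inpp5d genotypes was called for 0 of 10 markers (0% of all tested genes), and by DESeq2 for 0 (0.177%). Its smallest unadjusted edgeR p was 0.0703, for Cd163, and no marker was under 0.05 (4.7% of all tested genes). The counts of markers without overlap in the other comparisons were 3 of 10 for Tyrobp-/-;NLGF against NLGF, where 29.6% of all tested genes were, 2 of 10 for the compound mutant against Inpp5d+/-;NLGF (18.6%), 2 of 10 for the compound mutant against NLGF (18%) and 0 of 10 for Inpp5d+/-;NLGF against NLGF (7.62%).

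Further border macrophage genes were taken from a list of 25, of which 20 were tested. In the pooled Tyrobp comparison 2 of the 20 rose and 2 fell, where 2.08% of all tested genes were called as higher and 2.66% as lower. The median log2 fold change of the 20 was 0.32, against 0.0179 over all tested genes. Dab2, an endocytic adaptor gene, was at 13.3 and 12.7 CPM in Tyrobp-/-;NLGF and at 12.6, 15.3 and 16.4 CPM in the compound mutant, against 25.5 to 63.3 CPM in the other 6 libraries. It fell without overlap (log2 fold change -1.36, SE 0.22, edgeR adjusted p = 0.00818), and also in the compound mutant against Inpp5d+/-;NLGF (-1.56, SE 0.28, edgeR adjusted p = 0.0389). That second call ended in the fit on the compared groups only (edgeR adjusted p = 0.115), without any 1 of the compound mutant libraries or Inpp5d+/-;NLGF replicate 1 or 3 (0.0772 to 0.150), with the neutrophil marker covariate (0.188) and without the pair of libraries highest in S100a8 (0.204), Dab2 being at -1.18 to -1.77 on the log2 scale in these fits. Gas6, a ligand of the TAM receptors that take part in clearing dead cells, was at 129.8 to 151.2 CPM in the Tyrobp-/- libraries, against 186.0 to 330.3 CPM in the others, and fell (-0.79, SE 0.15, edgeR adjusted p = 0.0169).

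Clec4n, which encodes the lectin Dectin-2, was at 1.41 and 2.09 CPM in Tyrobp-/-;NLGF and at 1.19, 2.36 and 2.61 CPM in the compound mutant. Among the other libraries it had counts in Inpp5d+/-;NLGF replicate 1 alone, at 0.204 CPM. It rose (edgeR adjusted p = 0.0212), with a fitted log2 fold change of 7.15 (SE 1.27) that depends on the prior count. Clec4n passed the filter on low counts through the Tyrobp-/- libraries. Wfdc17 was at 42.1 and 28.98 CPM in Tyrobp-/-;NLGF and at 10.2, 35.4 and 16.2 CPM in the compound mutant, against 4.48 to 13.6 CPM in the others. It passed the test (1.69, SE 0.41, edgeR adjusted p = 0.0489), and its highest libraries were again those with most S100a8. Mgl2, the relative of Clec10a, was at 10.1 and 16.3 CPM in Tyrobp-/-;NLGF and at 4.97, 12.7 and 11.4 CPM in the compound mutant, against 0 to 4.0 CPM in the others. Its libraries did not overlap, but it did not pass (3.19, SE 1.23, edgeR adjusted p = 0.191). Without Inpp5d+/-;NLGF replicate 3 it did (6.55, edgeR adjusted p = 0.0172). Neither Siglec1, a sialic acid receptor (-1.04, SE 1.0, edgeR adjusted p = 0.653), nor Ms4a7 (0.65, SE 0.42, edgeR adjusted p = 0.463) passed. Leaving out Tyrobp-/-;NLGF replicate 2 ended the calls on Dab2 (edgeR adjusted p = 0.0515), Gas6 (0.0753) and Clec4n (0.0692), leaving out replicate 1 of that genotype ended those on Gas6 (0.0906) and Clec4n (0.0630), and the call on Wfdc17 ended in 9 of the 11 fits that left out 1 library. All 4 calls also ended when both libraries highest in S100a8 were left out, and with the neutrophil marker covariate. The log2 fold changes were then -1.39 and -1.68 for Dab2, -0.75 and -0.75 for Gas6, 7.21 and 6.33 for Clec4n, and 1.22 and 0.12 for Wfdc17, in that order of settings. With the covariate 0.147% of all tested genes were called, against 4.75% in the main fit, so lost calls are not particular to these genes. The fit without both libraries left 1 library of Tyrobp-/-;NLGF.

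Within genotypes, the markers varied together to different degrees. Each gene's log2 CPM was centred on its genotype mean and set against the mean of the 10 markers centred the same way, over the 11 libraries. That mean was lowest in NLGF replicate 2 (-1.57) and Inpp5d+/-;NLGF replicate 2 (-1.42) and highest in NLGF replicate 3 (1.62). Among the markers with a mean of at least 1 CPM, each of which is part of that mean, Pearson r was 0.84 for Pf4, 0.80 for F13a1, 0.69 for Cbr2, 0.64 for Mrc1 and 0.57 for Colec12. It was 0.17 for Folr2, 0.16 for Clec10a and -0.084 for Stab1, so the most abundant marker did not vary with the rest. In all, 14108 tested genes had a mean of at least 1 CPM, these markers included. Most like the mean, markers left out, were Mtrf1 (r 0.977), Rtn4 (0.974), Tmem144 (0.959), Gm6181 (0.945) and Cfhr2 (0.945). Next came Amd2 (0.939), 2310001H17Rik (0.938), Clec1a (0.933), Gm3150 (0.930) and Hipk2 (0.929). These values describe 11 points that share library depth, NLGF replicate 2 being the shallowest library, and none of these 10 genes was in a marker list used here. Mtrf1, a mitochondrial translation release factor gene, was at 5.04 CPM in NLGF replicate 2, 4.38 CPM in Inpp5d+/-;NLGF replicate 2 and 13.4 CPM in NLGF replicate 3. Rtn4, which encodes the reticulon Nogo, was at 86.9, 88.1 and 147.0 CPM in the same libraries.

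The lists of other cell types were read beside these results. In the pooled Tyrobp comparison 2.08% of all tested genes were called as higher and 2.66% as lower. Of 13 microglial identity genes, 4 rose and none fell in it. Tmem119 was at 5084 to 5667 CPM in the Tyrobp-/- libraries, against 3039 to 3825 CPM in the others, and Sparc, P2ry13 and Sall3 were the other 3. Of 9 dendritic cell genes none passed. Cd209a was at 10.5 to 46.9 CPM in the Tyrobp-/- libraries, against 0 to 11.2 CPM in the others (edgeR adjusted p = 0.114). Of 9 genes of antigen presentation by MHC class II none passed. Fibroblast genes of the leptomeninges were near 0, with Dcn, Lum, Col3a1 and Pdgfra at 0 in every library and a summed level of at most 0.796 CPM. None of 6 astrocyte and 7 neuronal genes passed.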

How the data were processed

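RNA of flow-sorted brain cells was sequenced in 11 libraries of 4 genotypes. Per the labels' protocols, libraries were made with SMART-Seq v4, which does not mark strand, and the submitters' processing notes name STAR (2.7.3a), featureCounts (1.6.4) and GRCm38.p6 and mm10. Per gene, the authors deposited whole-number read counts, without normalisation, with coordinates and exon lengths. Their annotation release, strand setting and handling of multi-mapped reads were not given in the sources used here.

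Groups follow the genotype label, and replicate numbers come from sample order and are no pairing. The 10 markers and all gene lists were chosen with earlier results of these data known. In R 4.3.3, genes were filtered with filterByExpr (minimum count 10, minimum total 15), scaled by TMM and fitted in 1 model with a coefficient per genotype (edgeR 4.0.16, glmQLFit and glmQLFTest). Adjusted p values are Benjamini-Hochberg values over 20390 genes, with a threshold of 0.05. CPM values use TMM-scaled sizes. Count ratios carry exact 95% intervals, and intervals and floors cover counting error only. Alternatives were RLE factors, no filter, a filter of 1 CPM in 3 libraries, DESeq2 1.42.0, fits on the compared groups only, each library left out, the 2 libraries with most S100a8 left out, and a neutrophil marker covariate. The procedure was also run on simulated data that held no neutrophil or handling difference between genotypes, and no result here rests on that run.

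Beyond the 10 markers, the genes named were those of each list called in any comparison or with the smallest p, and the 10 whose pattern was most like the markers' mean (prior count 1, at least 1 CPM). Others, such as Mgl2, Siglec1, Ms4a7 and genes at 0, were chosen after their values were seen. Sequence comparisons used GENCODE vM21 transcripts, in which 54349 of 55401 gene identifiers were found, and RefSeq promoters.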

Additional observations from a re-analysis of the deposited data

How the results depend on the processing

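No paired analysis was possible because the replicate numbers only follow the order of the samples and the labels give the genotypes no shared number. The count of markers called moved as follows. In Tyrobp-/-;NLGF against NLGF, DESeq2 called 1 against 0. In the compound mutant against Inpp5d+/-;NLGF, 1 was called, against 0 in the fit on the compared groups only, 0 without the 2 libraries with most S100a8, 0 with the neutrophil marker covariate, and 0 to 1 with each library left out. In the pooled Tyrobp comparison, 1 was called, against 2 with the filter of 1 CPM in 3 libraries, 2 by DESeq2, 0 without the 2 libraries with most S100a8, 0 with the covariate, and 1 to 2 with each library left out. In the compound mutant against NLGF, 0 were called, against 1 with that filter, 1 by DESeq2, and 0 to 1 with each library left out. In every one of these, the marker gained or lost was Colec12 or F13a1. The share of all tested genes called also moved. In the pooled Tyrobp comparison it was 4.75%, against 7.79% with that filter, 10.6% by DESeq2 and 0.147% with the covariate. In Tyrobp-/-;NLGF against NLGF it was 0.863%, against 5.08% by DESeq2. In the compound mutant against Inpp5d+/-;NLGF it was 0.897%, against 0.602% in the fit on the compared groups only and 0.142% with the covariate. For that mutant against NLGF it was 0.873%, 1.64% with that filter and 4.94% by DESeq2. Signs turned for results that passed in neither fit. With the covariate, Clec10a was at -0.50 in Tyrobp-/-;NLGF against NLGF, and in the pooled Tyrobp comparison Mrc1 was at -0.67, Cd163 at -0.10, Pf4 at -0.69, Cbr2 at -0.63 and Clec10a at -0.073. There S100a8 and Ly6c2, which had passed, were at -0.12 each; S100a8 is in the list that makes the covariate. In the pooled Tyrobp comparison Mrc1 was at -1.07 without the 2 libraries with most S100a8 and between -0.38 and 2.23 with each library left out (below 0 without Tyrobp-/-;NLGF replicate 1 or compound mutant replicate 2). Folr2 was between -1.48 and 0.22 with each library left out (above 0 without Inpp5d+/-;NLGF replicate 1). The log2 ratio of the summed marker level in the compound mutant against Inpp5d+/-;NLGF was 0.65 for the sum, which Stab1 dominates, and 1.13 as the mean over markers of the log2 difference. Fits without libraries or with a covariate have fewer residual degrees of freedom. With the covariate, the SE of Clec10a in Tyrobp-/-;NLGF against NLGF was 3.44, against 1.84 in the main fit. The fit without the 2 libraries with most S100a8 left 1 library of Tyrobp-/-;NLGF. Other causes were not tested. Depth limits Cd163 and Lyve1, which had at most 112 and 33 counts in a library.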
